A study of Mus musculus with 12 samples.

Results

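Thioglycolate-elicited peritoneal macrophages (PMφs) from mouse were used to ask whether loading with oxidized LDL (oxLDL) and stimulation with lipopolysaccharide (LPS) act on the transcriptome independently or whether each changes the effect of the other. The measure was the interaction, which is the oxLDL effect in LPS-treated PMφs minus the oxLDL effect in PMφs without LPS, both as log2(value + 1). The same number is also the LPS response of oxLDL-loaded PMφs minus the LPS response of unloaded PMφs. An interaction of 0 means that the 2 effects add on the log2 scale, and a gene with a called interaction is described here as non-additive. The interaction was computed within each replicate number and fitted for every gene with a value of at least 10 in 3 or more of the 12 libraries, which left 13482 of 43278 genes in the table.

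All 12 libraries were poly(A) RNA-seq of PMφs from wild-type C57BL/6J mice, and the study's methods describe pools of up to 10 male and female littermates of 8 to 12 weeks. The mice had received 1 ml of 4% thioglycolate 4 days before lavage, and adherent cells were used after 18 h in culture. The 4 groups of 3 libraries were control PMφs, PMφs given 100 µg/ml human medium oxidized LDL for 24 h (oxLDL), PMφs given 10 ng/ml ultrapure LPS (LPS), and PMφs given oxLDL and then LPS at these doses (oxLDL+LPS). The methods give LPS stimulation of up to 6 h over the study's experiments and do not name the time used for these libraries. If each library came from such a pool, the replicate spread is a spread between pools and cultures, not between single mice. The sample titles give a replicate number and name no pool, so the number of mice behind each library is not known.

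LPS is the outer-membrane glycolipid of Gram-negative bacteria. It is sensed by TLR4 with the co-receptors CD14 and MD-2, and TLR4 signals through MyD88 to NF-κB and the MAP kinases and through TRIF to IRF3 and type I interferon. OxLDL is taken up by scavenger receptors such as CD36 and MSR1, loads macrophages with sterol and oxidized lipid, and is known to engage PPAR, LXR and the antioxidant factor NRF2. Lipid-laden macrophages of this kind are the foam cells of atherosclerotic lesions.

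The deposited values are whole numbers, spaced as read counts are after scaling by 1 factor per library and rounding. They are called normalized values here. They summed to between 17152972 and 26384551 per library. The number of reads estimated from that spacing was 16729795 to 26171796. Of the 9 macrophage markers in the table (Lyz2, Cd68, Csf1r and others), none was at 0 in any group, and their summed normalized value was 235654 to 333989 in all libraries. Transcripts of the X-inactivation gene Xist and of Y-linked genes showed that the number 1 libraries with and without LPS did not come from the same pool. Xist was 1 in control and 2 in oxLDL of number 1 but 6331 in LPS and 3812 in oxLDL+LPS, while Y-linked Ddx3y was 439 to 1156 in all 4. In the 4 number 2 libraries Xist was 5933 to 7751 and Ddx3y 0 to 2, so not every library held RNA of both sexes, and only number 3 had Xist and Ddx3y together in all 4 groups. These transcripts put the pairing between LPS states in doubt for number 1 only. The interaction was fitted with the replicate number as a block within each LPS state, which needs no such pairing. Each loaded culture was thus set only against the unloaded culture of its own number and LPS state.

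With this block, 147 genes were non-additive at an adjusted p below 0.1 (limma, Benjamini-Hochberg), which is 1.09% of genes tested. The interaction was lower than 0 in 92 of them (0.682% of genes tested) and higher in 55 (0.408%). Almost all of both sets shared 1 pattern, a smaller LPS response in oxLDL-loaded PMφs. Of the 92 lower genes, 89 were genes that LPS induced, averaged over loaded and unloaded cells, and of the 55 higher genes 53 were genes that LPS repressed. Of all called genes, 60.5% were induced with an interaction below 0 and 36.1% were repressed with an interaction above 0. Over all genes tested, the same classes held 28.9% and 28.4%.

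These calls rest on few replicates. The smallest adjusted p was 0.0376, and 1913 genes (1027 lower and 886 higher) had an unadjusted p below 0.05. No gene was called without a block (smallest adjusted p = 1 by limma, 418 genes with an unadjusted p below 0.05), or with the replicate number as a block across all 4 groups (smallest adjusted p = 0.657, 967 genes). Splitting only number 1 by LPS state in that block also called no gene (smallest adjusted p = 0.111 by limma, 1525 genes). That fit was added after the data were seen. In this balanced design the block changes the error of the interaction and not its estimate. The sign was therefore bound to stay the same in all of these fits. The number of calls also turned on replicate number 2, without which 717 genes were called, and without number 1 or number 3 no gene was (smallest adjusted p = 0.288 and 0.547). Rescaling the libraries to the same total left 58 genes lower and 141 higher, and a square-root scale in place of log2 gave 254 lower and 37 higher, so the split between directions depended on the scaling.

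In the 92 lower genes the median LPS response was 2.62 (log2) in unloaded and 1.84 in loaded PMφs. LPS still raised the value in loaded cells for 88 of them. The median gene kept 60.27% of its fold induction. In the 55 higher genes the median LPS response was −2.11 unloaded and −1.37 loaded, and 52 were still below their level without LPS after loading. The most extreme interaction was −2.38 among lower genes and 1.34 among higher genes.

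**Figure D1:**
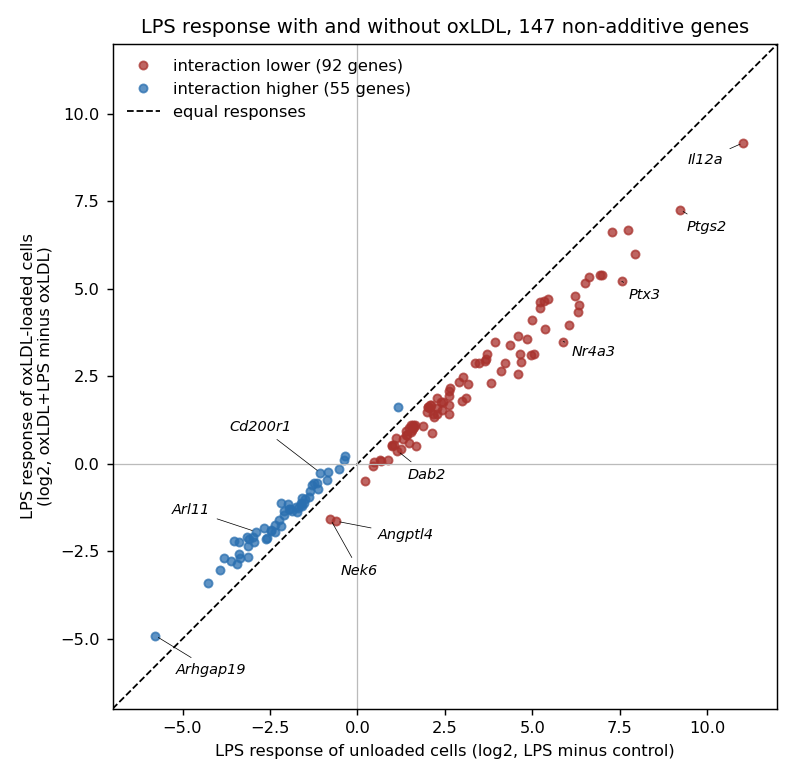
LPS response (log2) of the 147 non-additive genes in unloaded PMφs (horizontal axis) and in oxLDL-loaded PMφs (vertical axis), with 92 lower genes in red, 55 higher genes in blue and the line of equal responses dashed. Nearly all points lie between that line and a response of 0 in loaded cells, and Nek6 and Angptl4 are the lower genes on the repressed side.

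Over all genes tested, called genes included, the interaction leaned the same way. Of the 5198 genes that LPS induced (38.6% of genes tested), 75% had an interaction below 0, with a median of −0.10, and of the 5312 genes that LPS repressed (39.4% of genes tested) 27.9% did, with a median of 0.11. Among the 2972 genes without a called LPS response the share was 53.8%. With the 147 called genes left out, the shares were 74.5% of 5108 induced genes (median −0.10) and 28.2% of 5257 repressed genes (median 0.11). The 281 genes with an average LPS response above 4 had a median interaction of −0.32, and the 427 genes with one below −2 had a median of 0.33. The average LPS response and the interaction are orthogonal contrasts in this balanced design, so they share libraries but not the same difference. Genes are not independent replicates, and these shares are descriptions.

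**Figure D2:**
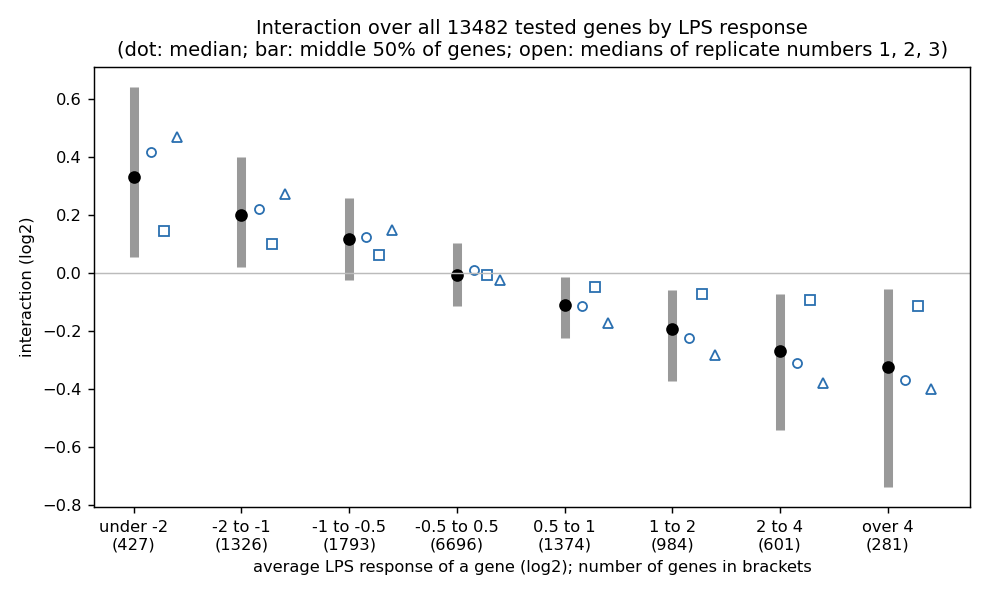
Interaction (log2, vertical axis) of all 13482 genes tested, in bins of their average LPS response (log2, horizontal axis, number of genes in brackets), with the median as a dot, the middle 50% of genes as a bar and the medians of replicate numbers 1, 2 and 3 as open symbols. The median falls from 0.33 in the most repressed bin to −0.32 in the most induced bin, and number 2 lies nearest to 0 in the outer bins.

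The oxLDL effect in the presence of LPS made up most of the interaction. In the lower genes the median oxLDL effect was −0.63 with LPS and 0.08 without it, and in the higher genes it was 0.57 with LPS and −0.05 without it. The oxLDL effect with LPS was called in 143 of the 147 genes (21.7% of genes tested), and the effect without LPS in 5 (0.519% of genes tested). These effects are the 2 terms of the interaction, so the counts describe the chosen genes and are not further evidence. Every oxLDL+LPS library lay below every LPS library in 36 of the 92 lower genes (6.19% of genes tested), and above in 25 of the 55 higher genes (6% of genes tested). In the remaining genes the groups overlapped.

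The 3 replicate numbers differed in the size of the interaction. All 147 genes had the same sign in the 3 numbers, against 38.8% of genes tested. The genes were called on these same values, which favours such agreement, so it is not further evidence. Number 2 gave the smallest interaction in 121 of them. The median over the lower genes was −0.77 in number 1, −0.43 in number 2 and −0.98 in number 3, and over the higher genes it was 0.67, 0.39 and 0.70.

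A list of 12 genes of mesothelial cells and fibroblasts, which share the peritoneal cavity, was followed because such cells also secrete chemokines and prostaglandins. Its summed normalized value was 25178, 17671 and 5858 in control PMφs of numbers 1, 2 and 3, 20709, 14657 and 6135 with oxLDL, 32073, 15038 and 6324 with LPS, and 18596, 16515 and 5453 with oxLDL+LPS. Its strongest gene was the collagen Col1a1, with 36.9% of the sum. With LPS the sum was lower after loading in numbers 1 and 3 and higher in number 2, and its own interaction was −0.50, 0.41 and −0.28. None of its genes was called, nor any gene of the other marker lists. The list of large peritoneal macrophages, with 61.9% of its sum in Fn1, had interactions of −0.58, 0.14 and −0.52. The list of mast cells, with 88.9% of its sum in the histamine synthesis gene Hdc, had −1.01, −0.17 and −1.66. Both sums were higher with LPS than in control PMφs. The first was 38266 to 92283 against 14084 to 25796, and the second 982 to 2031 against 80 to 86. The part of any of these cells in the interactions below was not tested, and in bulk libraries fewer cells of a type and less RNA per cell cannot be told apart.

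Ptgs2 (chromosome 1, 150100031 to 150108227, plus strand, GRCm38), which encodes cyclooxygenase 2, the inducible enzyme of prostaglandin synthesis, had the smallest p of the lower genes. Its normalized value was 50, 60 and 69 in control and 55, 74 and 58 in oxLDL PMφs of numbers 1, 2 and 3. With LPS it was 15114, 49362 and 61849, and with oxLDL+LPS 2888, 21485 and 14644. OxLDL lowered it in the presence of LPS within every number, but the highest oxLDL+LPS library exceeded the lowest LPS library. The interaction was −1.95 ± 0.25 (SE, adjusted p = 0.038), and loaded cells kept 25.9% of the fold induction. Pla2g4a, the cytosolic phospholipase A2 that releases arachidonic acid, was the other lower gene among 14 tested genes of arginine, prostaglandin and nitric oxide metabolism, of which 9 lay below 0 with a median of −0.25. It was 1274, 1261 and 1380 with LPS and 977, 1177 and 1037 with oxLDL+LPS (interaction −0.66, adjusted p = 0.099). The inducible nitric oxide synthase gene Nos2 was not called, with interactions of −1.95, 1.79 and −1.25 in numbers 1, 2 and 3.

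Inflammatory cytokines were the list with the lowest median. All 22 tested members were LPS-induced and lay below 0, against 75% of all LPS-induced genes, with a median interaction of −1.27 beside −0.01 over all genes tested. Of the 22, 4 were called lower, against 0.682% of genes tested. These shares and the median over all genes tested are the background for the lists that follow. The median LPS response of the 22 cytokines was 5.50 in unloaded and 4.10 in loaded PMφs. A nearer background for such strongly induced genes is the 281 tested genes with an average LPS response above 4. Their median interaction was −0.32, and 78.6% of them lay below 0.

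Il1a, encoding the alarmin IL-1α, was 359, 467 and 342 in control PMφs and 309, 437 and 344 with oxLDL. It reached 41095, 136940 and 146652 with LPS but 7499, 72239 and 22810 with oxLDL+LPS. The drop was steep in numbers 1 and 3 and smaller in number 2, and the interaction was −1.92 ± 0.35 (adjusted p = 0.062). Il12a, encoding the p35 chain of IL-12, was at 0 to 2 in every library without LPS, so its interaction of −1.85 depended on the pseudocount, and was −1.40 with a pseudocount of 10. In the LPS-treated libraries Il12a was 965, 3510 and 5363 without and 290, 1964 and 2040 with oxLDL. Lif, an IL-6 family cytokine, was 183, 553 and 596 with LPS and 51, 266 and 197 with oxLDL+LPS (interaction −1.34, adjusted p = 0.056). Inhba, which encodes the subunit of activin A, was 1266, 4425 and 2581 with LPS and 305, 2444 and 458 with oxLDL+LPS (interaction −1.79, adjusted p = 0.062).

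Several cytokines with estimates as large did not pass the test. Il1b was 51068, 85645 and 152939 with LPS and 7630, 44508 and 21943 with oxLDL+LPS, and its interaction of −2.02 ± 0.46 missed the threshold narrowly (unadjusted p = 0.0012). Il6 had an interaction of −1.98 (adjusted p = 0.19), and with a pseudocount of 10 it was called (adjusted p = 0.048), as were Il12b (0.080) and Il1b (0.059). Il12b, which encodes the p40 chain, had an interaction of −2.85, −0.04 and −3.09 in numbers 1, 2 and 3, so number 2 stood apart. Tnf was 36687, 65418 and 85240 with LPS and 20752, 45676 and 53561 with oxLDL+LPS (interaction −0.79, adjusted p = 0.12). Il27 had an interaction of −1.08 (adjusted p = 0.14), Il18 of −0.35 (adjusted p = 0.43) and Il15 of −0.31 (adjusted p = 0.37).

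**Figure D3:**
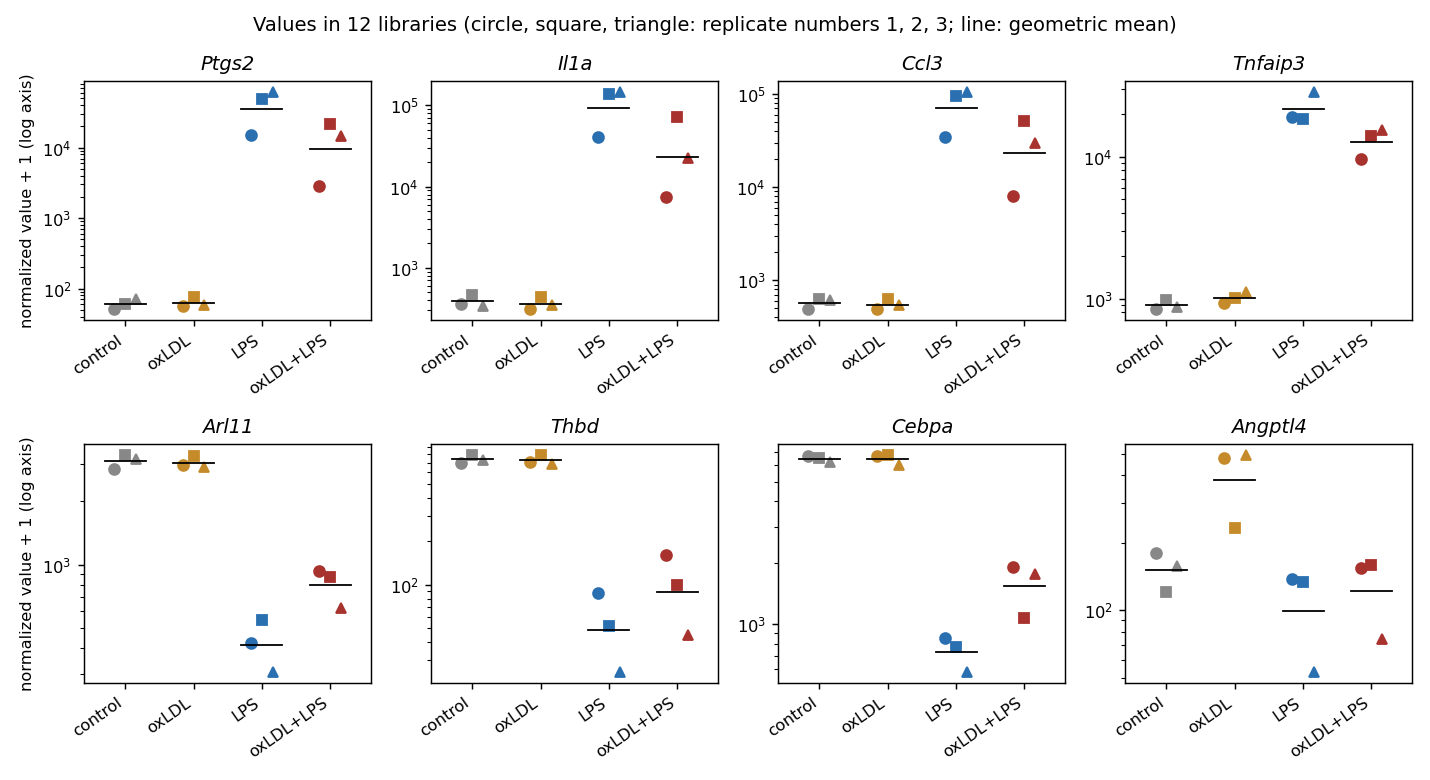
Normalized value + 1 (log axis) of 8 genes in the 12 libraries by group, with circles, squares and triangles for replicate numbers 1, 2 and 3 and a line at the geometric mean. Ptgs2, Il1a, Ccl3 and Tnfaip3 rise less with LPS in loaded cells, Arl11, Thbd and Cebpa fall less, and Angptl4 is highest with oxLDL alone.

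Chemokines, which recruit leukocytes, gave the most calls of any list. Of 22 tested genes, 21 of them LPS-induced, 20 lay below 0, 6 were called lower and none higher (0.682% and 0.408% of genes tested), and the median was −1.12. Ccl3, which encodes MIP-1α, was 34668, 93916 and 104907 with LPS and 7953, 51710 and 29510 with oxLDL+LPS. It was lower with oxLDL in each number, and the groups overlapped only through the number 1 LPS and the number 2 oxLDL+LPS library (interaction −1.54 ± 0.25, adjusted p = 0.049). Its neighbour Ccl4 had an interaction of −1.26 (adjusted p = 0.097).

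The monocyte attractants Ccl2 and Ccl7 had the larger interactions of −1.96 and −2.05. Ccl2 was 8418, 20076 and 12454 with LPS and 1970, 14896 and 2690 with oxLDL+LPS, and Ccl7 was 2168, 2452 and 1938 with LPS and 479, 1963 and 381 with oxLDL+LPS. In both genes number 2 changed least, as it did in 121 of the 147 non-additive genes. The neutrophil attractant Cxcl1 differed, with its largest interaction in number 2 (−1.54) and smaller ones in numbers 1 and 3 (−0.89 and −0.72). Ccl9 was 47249, 29321 and 52092 with LPS and 32140, 26058 and 31188 with oxLDL+LPS (interaction −0.70, adjusted p = 0.077). Ccl5 had an interaction of −0.29 (adjusted p = 0.49) and Ccl22 of −2.42 (adjusted p = 0.14). Ccl22 ranged from −1.15 to −4.35 over the numbers. Ccl8 was a low gene, at 35, 49 and 40 with LPS and 14, 26 and 15 with oxLDL+LPS (adjusted p = 0.21).

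This list holds the subunits of NF-κB, its inhibitors, and other genes that NF-κB is known to induce, several of which limit its activity. Of the 20 tested, all were LPS-induced, 18 lay below 0 (75% of all LPS-induced genes did), 4 were called lower (0.682% of genes tested) and none higher, and the median was −0.30. Tnfaip3, which encodes the ubiquitin-editing enzyme A20, was 843, 974 and 880 in control PMφs and 927, 1005 and 1115 with oxLDL. It reached 18958, 18506 and 28578 with LPS and 9607, 13875 and 15314 with oxLDL+LPS, so that every oxLDL+LPS library lay below every LPS library (interaction −0.94 ± 0.14, adjusted p = 0.046). Nfkbia, encoding the inhibitor IκBα, was 21097, 16242 and 25043 with LPS and 13890, 14212 and 18048 with oxLDL+LPS (interaction −0.57, adjusted p = 0.055). Zc3h12a, which encodes the cytokine mRNA nuclease regnase-1, had an interaction of −0.55 (adjusted p = 0.062), and Nfkbid, which encodes the nuclear protein IκBNS, one of −0.55 (adjusted p = 0.078).

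The sequences upstream of 2 lower genes and 1 higher gene are shown because NF-κB is the factor LPS is best known to activate. They are the 250 bases before the RefSeq start (GRCm38.p6), 5′ to 3′ on the gene's strand, at chr12:55492648-55492897 (minus strand) for Nfkbia, chr3:68691174-68691423 (plus) for Il12a and chr7:35119043-35119292 (plus) for Cebpa, and none overlaps an annotated exon. Capitals mark the NF-κB letters searched, GGG, then any 5 bases, then CC, on either strand, where matches may overlap.
Nfkbia: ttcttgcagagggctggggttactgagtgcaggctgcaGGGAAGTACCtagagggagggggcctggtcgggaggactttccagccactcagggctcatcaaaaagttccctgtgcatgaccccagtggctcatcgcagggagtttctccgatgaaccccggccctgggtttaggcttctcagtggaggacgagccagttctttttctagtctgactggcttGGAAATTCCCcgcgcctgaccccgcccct
Il12a: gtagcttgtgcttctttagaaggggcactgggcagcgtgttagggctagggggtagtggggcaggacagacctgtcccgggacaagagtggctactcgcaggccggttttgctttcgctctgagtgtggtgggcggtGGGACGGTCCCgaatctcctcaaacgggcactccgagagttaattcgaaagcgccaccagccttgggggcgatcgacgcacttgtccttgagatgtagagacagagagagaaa
Cebpa: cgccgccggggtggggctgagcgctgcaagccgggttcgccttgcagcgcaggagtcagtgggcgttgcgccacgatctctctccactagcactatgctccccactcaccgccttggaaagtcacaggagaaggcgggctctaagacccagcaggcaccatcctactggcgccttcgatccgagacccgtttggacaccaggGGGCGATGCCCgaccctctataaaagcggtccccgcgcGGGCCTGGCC
These letters occurred 2 times in the Nfkbia window, 2 overlapping times in Il12a and 3 times, 2 of them overlapping, in Cebpa, which moved the other way. They were found in 62.2% of the 10207 windows of genes tested that had one, so a match is common and sets no gene apart. A window was found for 114 of the 147 non-additive genes, which is 77.6% and below the 80% asked for, so counts of motifs over the non-additive genes are void and are not given.

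Genes of AP-1, EGR factors and MAP kinase feedback gave 4 lower calls (0.682% of genes tested) and no higher call among 22 tested, of which 16 were LPS-induced, with 20 below 0 and a median of −0.36. Spred1, an inhibitor of the Ras to ERK pathway, was 839, 670 and 702 in control and 1018, 814 and 1067 in oxLDL PMφs, then 8963, 9017 and 10144 with LPS and 7398, 7673 and 7775 with oxLDL+LPS. OxLDL raised it without LPS (0.39, adjusted p = 0.07) and lowered it with LPS (−0.30, adjusted p = 0.021), so the 2 effects were called in opposite directions. Ier3, an immediate early gene, had an interaction of −0.70 (adjusted p = 0.049), Ier2 of −0.60 (adjusted p = 0.097) and the AP-1 subunit Fosl2 of −0.47 (adjusted p = 0.067).

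Metallothioneins bind zinc and copper and are induced by metal and by inflammation. Mt2 was 90, 79 and 50 in control PMφs, 135, 90 and 95 with oxLDL, 2896, 1052 and 1998 with LPS, and 1058, 731 and 655 with oxLDL+LPS. Number 2 had the smallest induction and the smallest interaction (−2.03, −0.71 and −2.52), and the interaction over the 3 was −1.75 ± 0.27 (adjusted p = 0.048). Mt1 was also lower (−0.61, adjusted p = 0.082). Slc30a1, which encodes the zinc exporter ZnT1, went the other way, at 2422, 1275 and 2026 with LPS and 3843, 1756 and 3200 with oxLDL+LPS (interaction 0.60, adjusted p = 0.062). The average LPS response of Slc30a1 was not called. These were the 3 non-additive genes of 12 tested in metallothionein and metal handling.

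Among the other lower genes of smallest p were regulators of signaling, mRNA and endocytosis. Ccrn4l (now Noct), which encodes the circadian protein nocturnin, was 651, 828 and 848 with LPS and 422, 528 and 532 with oxLDL+LPS, without overlap (interaction −0.81 ± 0.11, adjusted p = 0.038). Dab2, an endocytic adaptor, was 1730, 2463 and 1596 with LPS and 1063, 1623 and 813 with oxLDL+LPS, and loaded cells kept little of its induction (LPS response 1.14 unloaded and 0.38 loaded). The kinase gene Pim1 had an interaction of −0.58 (adjusted p = 0.038), the proprotein convertase Furin of −0.57 (adjusted p = 0.046) and the transcription factor Stat5a of −0.59 (adjusted p = 0.046). In Furin the LPS and oxLDL+LPS libraries did not overlap, whereas in Pim1 the highest oxLDL+LPS library, 11353, passed the lowest LPS library, 11306. Hif1a, encoding the oxygen-regulated factor of glycolytic reprogramming, was 9099, 7885 and 9081 with LPS and 5868, 6207 and 6157 with oxLDL+LPS (interaction −0.41, adjusted p = 0.093), while none of 20 tested HIF-1 targets or 20 glycolysis genes was called.

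The largest lower interactions belonged to Nr4a3, an orphan nuclear receptor, and Ptx3, a long pentraxin of innate immunity. Nr4a3 was 2 to 9 in all libraries without LPS, 121, 348 and 502 with LPS and 38, 170 and 96 with oxLDL+LPS (interaction −2.38 ± 0.38, adjusted p = 0.049). Ptx3 was 6, 1 and 1 in control and 10, 5 and 5 in oxLDL PMφs, 233, 954 and 831 with LPS and 117, 625 and 275 with oxLDL+LPS (interaction −2.34 ± 0.35, adjusted p = 0.048). The values without LPS are near the floor, and a pseudocount of 10 gave −1.85 for Nr4a3 and −1.44 for Ptx3. A further 4 lower genes were the called members of their lists. They were Msr1, scavenger receptor A (−0.68, adjusted p = 0.055), Cebpb, a C/EBP factor of the stress list (−0.40, adjusted p = 0.078), Mki67, the proliferation antigen Ki-67 (−0.95, adjusted p = 0.077), and Wdr43 of ribosome biogenesis (−0.39, adjusted p = 0.090).

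The 55 higher genes were mostly genes of resting PMφs that LPS turned down. Arl11 (chromosome 14, 61309753 to 61311936, plus strand, GRCm38), a small GTPase of the ARF family, had the smallest p of all. It was 2852, 3339 and 3168 in control and 2971, 3287 and 2901 in oxLDL PMφs. With LPS it dropped to 424, 542 and 307, and with oxLDL+LPS to 935, 867 and 620, so that every oxLDL+LPS library lay above every LPS library (interaction 0.97 ± 0.12, adjusted p = 0.038). Nbeal2, a BEACH-domain gene needed for platelet α-granules, was 236, 142 and 175 with LPS and 380, 186 and 307 with oxLDL+LPS (interaction 0.94 ± 0.12, adjusted p = 0.038). Thbd, encoding the anticoagulant receptor thrombomodulin, was 87, 51 and 24 with LPS and 159, 98 and 44 with oxLDL+LPS, and its 3 interactions of 0.83, 0.94 and 0.94 were close to each other.

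Il6ra, the IL-6 receptor α chain, was 814, 1259 and 1001 in control PMφs, 175, 104 and 81 with LPS and 248, 140 and 122 with oxLDL+LPS (interaction 0.78, adjusted p = 0.038). Arrb1, β-arrestin 1, which desensitizes G protein-coupled receptors, was 380, 286 and 292 with LPS and 904, 403 and 721 with oxLDL+LPS (interaction 1.10 ± 0.18, adjusted p = 0.049). Cd200r1, an inhibitory receptor of myeloid cells, had an LPS response of −1.07 in unloaded and −0.25 in loaded PMφs (interaction 0.82, adjusted p = 0.051), and it was 2074, 884 and 1761 with oxLDL+LPS against 1023, 567 and 729 with LPS. Cd300lb, another receptor of the CD300 family, was 1083, 542 and 333 with LPS and 2987, 794 and 1156 with oxLDL+LPS (interaction 1.16, adjusted p = 0.078), with number 2 again the smallest at 0.40. Nfam1, an ITAM-bearing receptor, had an interaction of 0.70 (adjusted p = 0.051).

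Cebpa, encoding C/EBPα, a lineage factor of myeloid cells, was 6642, 6512 and 6237 in control and 6678, 6784 and 6007 in oxLDL PMφs. It was 852, 770 and 581 with LPS and 1901, 1072 and 1749 with oxLDL+LPS, without overlap (interaction 1.07 ± 0.21, adjusted p = 0.071). Its relative Cebpb had the opposite sign of interaction and the opposite LPS response. The focal adhesion gene Tns1 had an interaction of 0.86 and the vitamin B6 kinase Pdxk of 0.61 (both adjusted p = 0.051). Ivd, isovaleryl-CoA dehydrogenase, was the only called gene of 24 tested in fatty acid oxidation (0.45, adjusted p = 0.095). Mpzl1, a cell-surface glycoprotein, was a low gene at 22 to 34 with LPS and 47 to 52 with oxLDL+LPS (interaction 1.06, adjusted p = 0.097).

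Of the 147 genes, 5 did not follow the common pattern. LPS lowered Nek6, a mitotic kinase gene, and Angptl4, a PPAR target that inhibits lipoprotein lipase, and both had an interaction below 0. Angptl4 was 180, 119 and 157 in control and 478, 231 and 495 in oxLDL PMφs, but 137, 132 and 52 with LPS and 154, 158 and 73 with oxLDL+LPS. OxLDL raised it without LPS (1.34, adjusted p = 0.01) and the effect with LPS was 0.30 (adjusted p = 0.17), an interaction of −1.03 ± 0.19 (adjusted p = 0.062). It was the only called gene of 14 tested PPAR targets and their median was 0.00061. Nek6 was 824, 1007 and 713 in control PMφs, 1065, 1241 and 1145 with oxLDL, 622, 561 and 339 with LPS and 494, 515 and 219 with oxLDL+LPS (interaction −0.81, adjusted p = 0.055). Trib1, a pseudokinase gene, was 281, 309 and 189 with LPS and 199, 203 and 106 with oxLDL+LPS, and its average LPS response was not called (interaction −0.71, adjusted p = 0.097). The others were Slc30a1, described above, and a gene whose symbol a spreadsheet had turned into the date 01-Mar and which was not assigned. LPS raised that gene more in loaded than in unloaded cells (interaction 0.48, adjusted p = 0.077).

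Lists of interferon and antioxidant genes gave no call in either direction. All 39 tested interferon-response genes were LPS-induced, with a median LPS response of 6.77 in unloaded and 6.42 in loaded PMφs. Their median interaction was −0.15, with 29 below 0 and 10 above. Isg15, encoding a ubiquitin-like antiviral protein, was 26673, 23762 and 36094 with LPS and 23694, 22744 and 25138 with oxLDL+LPS, an interaction of −0.07 ± 0.14, and Ifit1 had one of 0.13 ± 0.22. At an unadjusted p below 0.05, 6 of these genes were lower and 1 higher. The difference between this list and the cytokines was not tested.

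NRF2 targets were the list with the highest median, 0.34, and 26 of 29 tested genes lay above 0. None was called, and 7 had an unadjusted p below 0.05, all higher. The replicate numbers gave medians of 0.81, 0.01 and 0.28. Hmox1, which encodes heme oxygenase 1, was 6901, 6421 and 6087 in control PMφs and 9106, 7989 and 13359 with oxLDL. It was 16282, 8326 and 8635 with LPS and 55988, 12622 and 43842 with oxLDL+LPS, with interactions of 1.38, 0.29 and 1.21 (adjusted p = 0.27). Srxn1, encoding sulfiredoxin, was 3999, 2612 and 3888 with LPS and 17753, 4175 and 19950 with oxLDL+LPS (interaction 0.87, adjusted p = 0.37). In both genes number 2 had the smallest oxLDL effect in the presence of LPS. Nfe2l2, which encodes NRF2, had an interaction of 0.14 ± 0.08 (adjusted p = 0.50).

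Of the other lists, antigen presentation had 21 of 22 genes below 0 with a median of −0.19. Heat shock had 12 of 15 below 0 with a median of −0.18, and neither list had a called gene. LPS induced 21 and 12 of their genes, and 75% of all LPS-induced genes lay below 0. None of 25 tested genes of cholesterol synthesis and uptake was called (median −0.13), nor of 16 in fatty acid synthesis (−0.01), 13 LXR targets (−0.08), 18 of itaconate and the TCA cycle (0.02), 34 of nuclear-encoded oxidative phosphorylation (−0.02) or 23 lysosomal genes (0.03). A last list held genes named in the study, and it overlaps the lists above. Of its genes, 5 of 26 tested were called, all lower: Ccl3, Ccl4, Ccl9, Il1a and Hif1a. The kinase genes Akt1 and Akt2 had interactions of 0.06 and −0.25, and Acly, encoding ATP citrate lyase, had −0.01 ± 0.09. None of these 3 was called. Cpt1a, the carnitine shuttle enzyme of mitochondrial fatty acid oxidation, missed the threshold narrowly, at 2560, 1683 and 2542 with LPS and 4631, 2705 and 4483 with oxLDL+LPS (interaction 0.34 ± 0.08, adjusted p = 0.102). Lipa had an interaction of 0.38 (adjusted p = 0.31) and Tbk1 of −0.08 (adjusted p = 0.67). Acaa2 had 0.12 (adjusted p = 0.72). Cd36, the scavenger receptor for oxLDL, was higher with oxLDL in every number whether or not LPS was given, and its interaction was 0.05 ± 0.21 (adjusted p = 0.94).

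**Figure D4:**
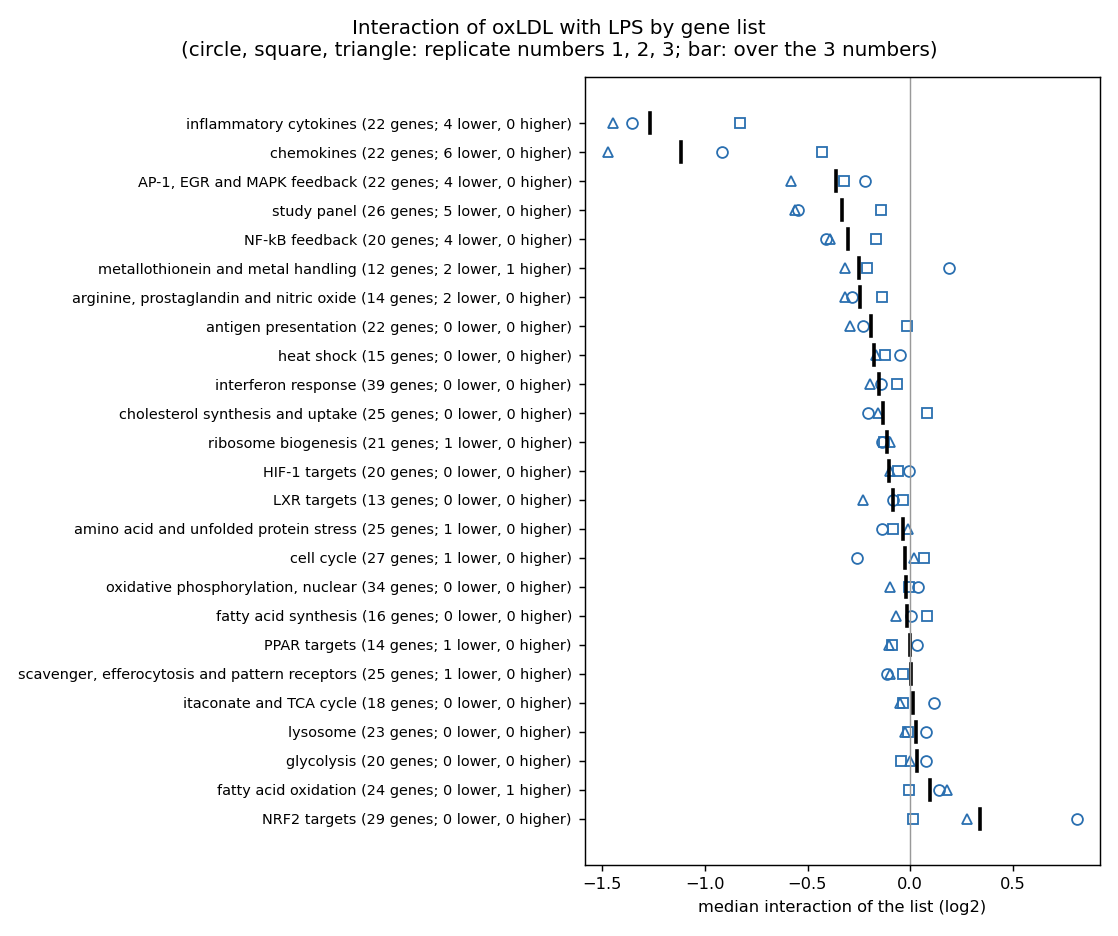
Median interaction (log2, horizontal axis) of 25 gene lists, with a bar for the fit over the 3 replicate numbers, open circles, squares and triangles for numbers 1, 2 and 3, and the number of tested and called genes in brackets. Inflammatory cytokines and chemokines lie lowest, at −1.27 and −1.12, and NRF2 targets highest, at 0.34, with number 2 nearest to 0 in these 3 lists.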

How the data were processed

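The authors trimmed the reads with Trimmomatic 0.32, aligned them with STAR 2.5.1b to GRCm38, counted reads per GENCODE vM4 gene with featureCounts and used DESeq2. The strand setting of the counting is not given in the sources used here, so overlapping genes and gene families are uncertain. The deposited signal is whole numbers spaced as counts are after scaling by a factor of the library and rounding, and reads could not be recovered from it. Tests made for counts were therefore not run.

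Interactions were fitted with limma 3.58.1 (lmFit and eBayes with a trend, R 4.3.3) on log2(value + 1) over 12 libraries, with 6 blocks of replicate number within LPS state. This leaves 4 residual degrees of freedom. The average LPS response, which sorted genes into induced and repressed, was fitted with the replicate number as a block over all 4 groups. That block pairs the number 1 libraries across LPS states, although these did not come from the same pool. Genes with a Benjamini-Hochberg adjusted p below 0.1, the study's threshold, were called. A value of the contrast in 3 numbers cannot reach an exact sign-flip p below 0.25. Deviations from group means of same-numbered libraries correlated at 0.566 to 0.657 within an LPS state and 0.234 to 0.566 across states (13482 genes, not independent), and the methods describe pools divided among groups. On simulated data of 13482 genes with 200 interactions, the fit called 24% of those of size 0.5 and 64% of those of size 1. Of its calls, 6.38% were false. The simulated noise was independent and followed the fitted model itself. These shares hold only where that model holds and are not an error rate of the calls reported here. The genes, lists and tests were chosen with earlier results of these data known. Named were the 10 genes of smallest p and the 5 of largest size per direction (predicted genes aside), called list members and the study's panel. Some genes under this rule are not reported here, and others were added after their values were seen. Of the symbols, 25 had become dates and were not assigned. Positions come from GENCODE vM21 and upstream windows from RefSeq (GRCm38.p6).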

Additional observations from a re-analysis of the deposited data

Results flagged for a closer look

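The oxLDL effect differed with and without LPS, by the test of the difference itself, in 147 genes, which is the comparison of the report. Of these, 7 are set apart because they depart from a smaller LPS response in loaded cells or because oxLDL had called effects of opposite sign in the 2 states. Spred1 (interaction −0.69) and Ptx3 (−2.34) were raised by oxLDL without LPS and lowered with it. These effects were 0.39 and −0.30 for Spred1 and 1.27 and −1.06 for Ptx3. The rise of Ptx3 without LPS rests on values near the floor, 6, 1 and 1 in control and 10, 5 and 5 with oxLDL. With a pseudocount of 10 its interaction was −1.44. Nek6 (−0.81) and Angptl4 (−1.03) were repressed by LPS more in loaded than in unloaded cells. Trib1 (−0.71) and Slc30a1 (0.60) had no called average LPS response, and LPS induced the unassigned gene listed as 01-Mar (0.48) more in loaded cells. The date symbol could stand for more than 1 gene, and its LPS libraries ranged from 611 to 2807.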

How the results depend on the processing

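Where tested, the 147 non-additive genes kept the sign of their interaction in all 21 alternatives. Of them, 7 were not tested when a value of 10 was required in all 12 libraries. In many alternatives the sign could not change. A change of block, filter or error model left the estimate as it was. Leaving out a whole number could not reverse a sign that was the same in all 3 numbers. The number of calls did not keep. It was 0 without a replicate block, with the number as a block over all 4 groups, with that block and number 1 split by LPS state (added after the data were seen, smallest adjusted p = 0.111), and with no filter on low values (25005 genes). Unadjusted p below 0.05 was then reached by 418, 967, 1525 and 2278 genes. Differencing within each number, a replicate block added after the data were seen, gave 535 (322 lower, 213 higher). A pseudocount of 10 gave 141 lower, a square-root scale 291 (254 lower), and equal library totals 58 lower and 141 higher. Leaving out 1 replicate number or 1 pair of libraries gave 0 to 1519 genes, 0 to 835 lower and 0 to 684 higher. The largest count came without the number 2 pair given LPS, 717 came without number 2 altogether, 2 without the number 1 pair not given LPS, and 0 without any of the others (922 to 1528 genes with an unadjusted p below 0.05). The cause was not tested. The average oxLDL effect was called in 2243 genes with the block and 35 without.

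Named genes that were called never reversed, but many of the alternatives could not have reversed them, as described above. Of their 1046 values under alternatives, 461 stayed past the threshold. Among named genes not called, Acly reversed with equal totals (0.0881) and TMM factors (0.0182) and ranged from −0.0602 to 0.0922 over the left-out sets, Tbk1 reversed with equal totals (0.0158), Acaa2 on the square-root scale (−0.362), and Cd36 on that scale (−6.04) and over the left-out sets (−0.130 to 0.264). Depth limits genes near the floor without LPS: Ptx3 was −1.44 with a pseudocount of 10 and −2.545 with one of 0.5, and Il12a −1.396 and −2.095.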

Other observations

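Some groups of non-additive genes lay outside the lists and were noticed after their values were seen, so they are given as values only. Some take part in cytokine receptor signaling through JAK and STAT. Socs1, a feedback inhibitor of JAK kinases, was 951, 1103 and 1831 with LPS and 364, 762 and 810 with oxLDL+LPS, without overlap (interaction −1.43, adjusted p = 0.049 by limma). Socs3 was 15661, 11034 and 16698 with LPS and 6653, 6834 and 5467 with oxLDL+LPS, also without overlap (−1.33, adjusted p = 0.062). Cish, of the same family and a target of STAT5, was 87, 676 and 374 with LPS and 30, 253 and 46 with oxLDL+LPS (−1.86, adjusted p = 0.097), and Jak2 itself was lower by a smaller amount (−0.43, adjusted p = 0.093). Il6ra, a receptor gene of the same signaling, was higher (0.78, adjusted p = 0.038).

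Genes of coagulation and plasminogen activation were also present in both directions. F3, which encodes tissue factor, had an interaction of −1.24 (adjusted p = 0.067), Serpinb2 of −0.89 (adjusted p = 0.056) and the urokinase receptor Plaur of −0.54 (adjusted p = 0.082), whereas the anticoagulant Thbd was higher. Plau, urokinase itself, differed from these in that oxLDL raised it without LPS (0.61, adjusted p = 0.03) and left an effect of −0.01 with LPS. The antiapoptotic gene Bcl2l1 had the same form, with 0.46 without LPS (adjusted p = 0.04) and −0.08 with it. Cd200 and its receptor gene Cd200r1 went in opposite directions, at −0.58 (adjusted p = 0.071) and 0.82.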
